A study of Mus musculus with 6 samples.

Results

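Oxidative phosphorylation is the work of 5 protein complexes in the inner mitochondrial membrane. Complexes I and II take electrons from NADH and succinate, complex III passes them on to cytochrome c, and complex IV, cytochrome c oxidase, hands them to oxygen. The proton gradient that complexes I, III and IV build up is used by complex V, the ATP synthase. Most subunits are encoded in the nucleus, and some subunits of complex IV exist as alternative isoforms that are made in particular tissues. Osteoblasts that lay down collagen use ATP from both glycolysis and respiration.

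The genes described here are all those that the array's annotation names with a symbol beginning Ndufa, Ndufb, Ndufc, Ndufs or Ndufv (complex I), Sdh (complex II), Uqcr (complex III), Cox4 to Cox8 (complex IV) or Atp5 (complex V). This rule, which uses no measured value, found 94 of the 18193 genes read by probe sets of their own. Of these, 81 encode structural subunits, namely 34 of complex I, 4 of complex II, 8 of complex III, 18 of complex IV and 17 of complex V. The other 13 carry the prefixes but encode assembly factors (the Ndufaf and Sdhaf genes and Cox7a2l) and were kept apart. Ndufa4 and Ndufa4l2 were counted to complex IV, where the Ndufa4 protein is found. Another 8 symbols that fit the prefixes, among them Ndufa11 and Ndufs6, were read only by probe sets that several genes share, and 0 of the 10 shared probe sets passed the test in limma.

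RNA came from cultures of MC3T3-E1, a mouse osteoblastic line used here as a single subclone, that were either left untreated (control) or given ascorbic acid (AA) at 50 µg/ml, a dose that the labels state without its volume. There were 3 control and 3 AA cultures, all taken at day 5, and AA, which collagen hydroxylation needs, was the only difference between the groups that the labels give. Each RNA was hybridized to an Affymetrix Mouse Genome 430 2.0 array, and the deposited values are MAS5 signals on a linear scale. The sources describe both wells and experiments in triplicate, so the p-values measure the spread between these samples, which may be technical. Median signals lay between 14.9 and 17.7 on all 6 arrays. Gapdh probe sets at the 3' and the 5' end, whose ratio is a sign of RNA integrity, stood at 0.79 to 0.81 on 5 arrays and at 0.92 on control replicate 3. The same ratio for actin was 1.35 to 1.45 on those 5 arrays and 1.79 on control replicate 3. Of the 8 osteoblast markers read, 3 rose in AA. Alpl, the bone alkaline phosphatase, rose by 1.52 on the log2 scale (adjusted p = 0.000463 in limma). Ibsp, bone sialoprotein, rose by 1.53 on the same scale (adjusted p = 0.000549 in limma). Col1a1, the main bone collagen chain, gave a log2 fold change of 0.11 (adjusted p = 0.417 in limma). Among markers of other cell types, Csf1r, the macrophage growth factor receptor, and Col2a1, the cartilage collagen, also rose in AA. Of the 4 macrophage markers, 2 had log2 fold changes above 0 and 2 below, and the 4 chondrocyte markers were split in the same way. No other marker of these lists passed in limma, and a sum of signals follows its brightest genes. The summed signal of the 4 macrophage markers was 39.4 to 49.5 in control and 97.5 to 122 in AA, with Ptprc, their pan-leukocyte marker, at 0.328 to 4.52. That of the 4 chondrocyte markers was 335 to 400.0 in control and 434 to 538 in AA. The part of such cells in the results was not tested.

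The signals of most oxidative phosphorylation genes differed little between control and AA cultures, and a single member passed the test. Cox6a2, the isoform of a complex IV subunit known from heart and skeletal muscle, fell. For each gene the probe set of highest mean signal was taken, log2 signals were quantile-normalized between arrays, and limma's adjusted p under 0.05 counted as passed. By this measure 0 of the 94 members were higher in AA and 1 was lower, where 4.07% of all genes were higher and 3.85% lower. At an unadjusted p under 0.05 in limma, 8 members were higher and 4 lower, which is 8.51% and 4.26% of the members against 10.7% and 12.9% of all genes. In the methods' t-test after Benjamini-Hochberg adjustment, 0 of all genes passed in either direction, so the 0 for the members says nothing about them. By that test's unadjusted p with a fold limit of 1.5, 0 members and 189 of all genes were higher. The largest rise among the 83 members above the upper quartile of signal was 1.336-fold, for Ndufaf4. The fold limit thus kept all 83 from counting as higher, whatever their p.

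The estimates for the members were precise for these 6 arrays. A total of 83 members had mean signals above 133, the upper quartile of all probe sets, and 68 were above 1000. Among these 83, the log2 fold changes ran from −0.20 to 0.42 with a median standard error of 0.075. The 95% interval of the log2 fold change lay wholly within −0.5 and 0.5 for 81 of the 94 members (86.2%). It did so for 80.1% of genes above 1000, 66.4% of the 7147 genes above the upper quartile and 29.9% of all genes. For 42 members it lay within −0.25 and 0.25. The 11 members below the upper quartile, 9 of them in complex IV, had log2 fold changes from −1.74 to 0.71 with a median standard error of 0.48, so for most of them these arrays set only wide bounds.

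**Figure D1:**
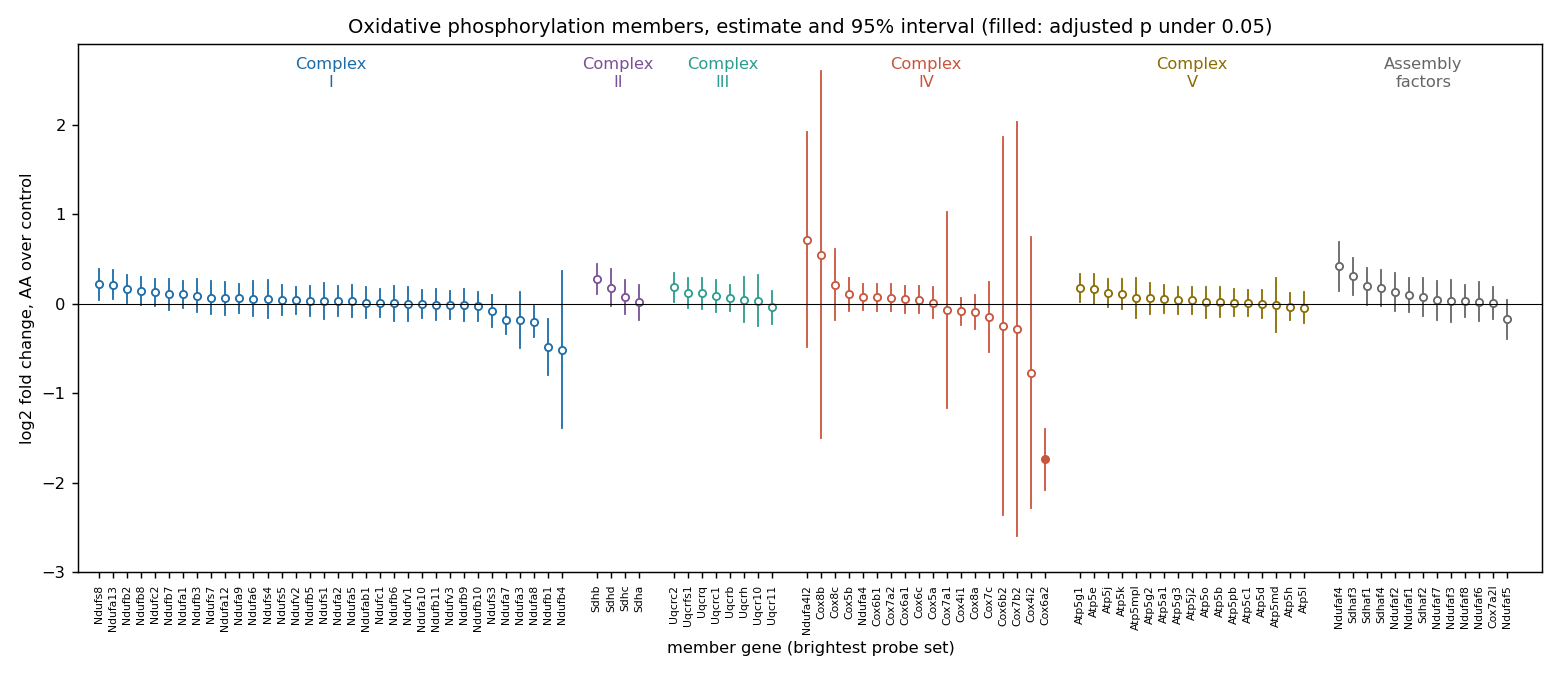
Log2 fold change (AA over control) of the 94 members, grouped by complex and ordered by size, with circles for the limma estimate and vertical lines for its 95% interval. The filled circle is Cox6a2 at −1.74, the only member that passed, and the long lines in complex IV belong to isoforms with dim probe sets.

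The members' median log2 fold change was 0.038, where that of all genes was −0.021 and that of genes above the upper quartile −0.022. It was 0.020, 0.13 and 0.007 in the pairs of replicates 1, 2 and 3. The mean of the AA arrays was above that of the control arrays for 68 of 94 members (72.3%) and for 47.6% of all genes. With the signals as deposited this count was 77, and after median centring in place of quantile normalization it was 60, beside 48.4% and 43.3% of all genes. These are small shifts of genes that share the same 6 arrays, and they were given no test. The 3 AA arrays lay above all 3 control arrays for 16 members (17.0%) and below them for 6 (6.38%). This held for 13.0% and 15.1% of all genes, and for 20.1% and 23.5% of genes above the upper quartile. Beside genes of that signal, the members' share was the smaller in both directions.

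**Figure D2:**
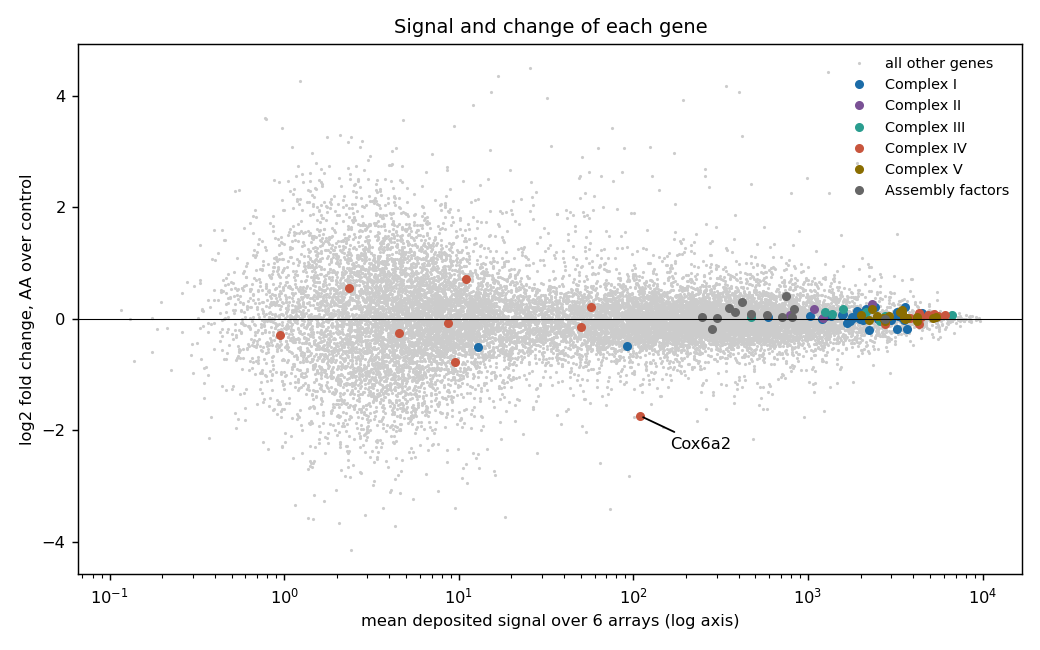
Mean deposited signal over the 6 arrays (log axis) against the log2 fold change of AA over control, with 1 point per gene, grey for all other genes and coloured by complex for the 94 members. Of the members, 83 lie above a signal of 133 and between −0.20 and 0.42, while Cox6a2 stands apart below them.

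Promoter letters were counted as a feature that the choice of the genes did not use, with no test. NRF1 and GABP are transcription factors long linked to genes of the respiratory chain, and their core motifs were searched on both strands in the 250 bases before each start in RefSeq's promoter table (GRCm38.p6), which held 78 of the 94 members. The NRF1 core, GCGCANGCG, lay in 14 of these 78 members (17.9%) and in 9.47% of the 14452 genes of the array with an entry. The GABP core, CCGGAAG, lay in 16 members (20.5%) and in 11.8% of those genes. At least 1 of these motifs was found for 26 members (33.3%) and 19.6% of those genes, and the cores of NRF1 and GABP can share no more than 1 end base. Most members had neither core. By complex, the share with the NRF1 or the GABP core was 22.6% in complex I and 16.7% in complex IV, near that of all array genes. It was 66.7% in complex II (2 of 3 genes), 40% in complex III (2 of 5), 46.7% in complex V (7 of 15) and 50% among the assembly factors (6 of 12). The YY1 core AAGATGGCG (1.28% of members, 1.04% of genes), TATAAA (8.97% and 10.5%) and CACGTG (7.69% and 8.73%) were searched in the same way. A match is a run of letters, and no binding was measured. Both the NRF1 and the GABP core were present for Sdhd, Cox6a1, Atp5h and Atp5l. For each of the 3 complexes concerned, the promoter of whichever of these genes had the highest signal is shown. The promoters are written 5′ to 3′ in the direction of transcription, with the motifs in capitals. All lie on the minus strand of GRCm38.p6, at chr9:50603850-50604099 for Sdhd, chr5:115348959-115349208 for Cox6a1 and chr11:115419920-115420169 for Atp5h.
Sdhd: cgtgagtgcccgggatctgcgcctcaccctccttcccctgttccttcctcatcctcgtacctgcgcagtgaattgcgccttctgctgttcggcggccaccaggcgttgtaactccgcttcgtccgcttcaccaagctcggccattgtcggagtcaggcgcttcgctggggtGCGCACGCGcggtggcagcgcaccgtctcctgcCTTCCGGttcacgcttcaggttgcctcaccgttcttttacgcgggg
Cox6a1: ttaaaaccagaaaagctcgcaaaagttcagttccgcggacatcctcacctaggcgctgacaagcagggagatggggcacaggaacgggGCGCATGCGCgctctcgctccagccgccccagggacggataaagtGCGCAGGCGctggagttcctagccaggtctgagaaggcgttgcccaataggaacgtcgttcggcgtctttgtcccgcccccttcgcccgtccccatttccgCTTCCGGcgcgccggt
Atp5h: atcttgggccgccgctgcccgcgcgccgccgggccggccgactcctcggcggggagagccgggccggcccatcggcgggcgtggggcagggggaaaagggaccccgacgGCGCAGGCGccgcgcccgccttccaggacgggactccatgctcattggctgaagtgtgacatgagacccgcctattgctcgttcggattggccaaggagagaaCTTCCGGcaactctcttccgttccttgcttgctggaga
In Cox6a1 the NRF1 core occurs at more than 1 place, and in all 3 promoters the GABP core reads CTTCCGG, its reverse complement. The 3 genes did not pass the test: their log2 fold changes were 0.18 for Sdhd, 0.048 for Cox6a1 and −0.036 for Atp5h.

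Complex I, the NADH dehydrogenase, had 34 members, of which 0 passed in either direction in limma and 3 were higher and 3 lower at an unadjusted p under 0.05. The median log2 fold change was 0.028, with 22 members above 0 and 12 below. Among the 6 core subunits read, which hold the flavin and the iron-sulfur clusters or frame the quinone site, Ndufs8 had the largest value. Its signals were 2261, 2005 and 2274 in control and 2618, 2798 and 2510 in AA, a log2 fold change of 0.22 ± 0.075 (SE, n = 3 per group; adjusted p = 0.169 in limma). All 3 AA arrays were above the control arrays, by an amount that did not pass. The flavin-binding Ndufv1 read 1227, 1095 and 1268 in control and 1221, 1235 and 1131 in AA, with a log2 fold change of −0.004. The other core subunits Ndufs1, Ndufs3, Ndufs7 and Ndufv2 lay between −0.082 and 0.065.

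The accessory subunits of complex I ran over a wider range, from −0.51 to 0.21. Ndufa1, a small membrane subunit and the member of this complex with the highest signal, read 4079, 4073 and 4260 in control and 5063, 4948 and 4442 in AA. Its AA arrays were all higher as deposited, and after normalization the log2 fold change was 0.10 (adjusted p = 0.487 in limma). Ndufa13, also called Grim19, read 3312, 2845 and 3602 in control and 4042, 3869 and 3879 in AA (log2 fold change 0.21, adjusted p = 0.158 in limma). Ndufa7 went the other way with 3765, 3574 and 4070 in control and 3686, 3652 and 3347 in AA (log2 fold change −0.18, adjusted p = 0.202 in limma). Ndufa13 and Ndufa7 passed when only probe sets above the upper quartile of signal were tested, with adjusted p = 0.0373 and 0.0445 in limma. Ndufa8, an accessory subunit with paired cysteines, gave −0.20 on the log2 scale (adjusted p = 0.196 in limma). 

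The lowest values in complex I came from dim probe sets. Ndufb1 read 116, 108 and 97.5 in control and 72.6, 77.9 and 76.6 in AA. The groups did not overlap, and the log2 fold change was −0.48 ± 0.14 (SE, n = 3 per group; adjusted p = 0.0926 in limma). Ndufb4 had the smallest value, −0.51, on a probe set that read 9.59 to 18.02, and 5 of its 6 arrays were under the overall median signal (16.02). A brighter probe set that Ndufb4 shares with Ndufb4b and Ndufb4c read 2345, 2288 and 2462 in control and 2741, 2677 and 2511 in AA, with a log2 fold change of 0.089 (adjusted p = 0.579 in limma). Another probe set shared by the same genes read 1810, 1850 and 2197 in control and 2192, 2134 and 1732 in AA (log2 fold change −0.005, adjusted p = 0.992 in limma). The dim probe set of Ndufb4 thus differed in sign from the brighter shared one, and the other shared one showed almost no change.

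Ndufs4, a subunit of the peripheral arm, gave different readings by probe set, which was seen after its values were known. Its brightest probe set read 882, 994 and 1152 in control and 1029, 1059 and 1007 in AA (log2 fold change 0.049, adjusted p = 0.855 in limma). Another probe set read 65.1, 62.6 and 59.4 in control and 121, 89.2 and 89.1 in AA, which passed with a log2 fold change of 0.67 ± 0.15 (SE, n = 3 per group; adjusted p = 0.0406 in limma). Of the 91 further probe sets of the members, 78 were above the median signal. This one rose and 1 of Cox6a2 fell, while 2.71% of the array's probe sets passed upward and 2.50% downward. In 23 of the 49 members with several probe sets above the median signal, the fold changes had both signs.

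Complex II, succinate dehydrogenase, links the citrate cycle to the respiratory chain and has no subunit from mitochondrial DNA. Its 4 members had log2 fold changes between 0.013 and 0.27, a median of 0.13 (0.071 after median centring), and 0 passed in limma, with 1 higher at an unadjusted p under 0.05. Sdhb, the iron-sulfur subunit, read 2154, 1908 and 2136 in control and 2596, 2715 and 2485 in AA. Every AA array was above every control array, and the log2 fold change was 0.27 ± 0.074 (SE, n = 3 per group), a 1.21-fold difference with a 95% interval of 0.10 to 0.44 and an adjusted p of 0.0798 in limma. It passed when dim probe sets were left out of the test, with adjusted p = 0.0340 above the median signal and 0.0277 above the upper quartile. Sdha, the flavoprotein, read 1287, 1225 and 1123 in control and 1144, 1274 and 1272 in AA, and the groups overlapped (log2 fold change 0.013). The membrane anchors Sdhc and Sdhd gave 0.074 and 0.18, and neither passed. Further probe sets of these genes went both ways. One of Sdha read 941 to 1034 in control and 839 to 865 in AA, a log2 fold change of −0.19 (adjusted p = 0.230 in limma). One of Sdhc gave −0.24 and one of Sdhd gave 0.32, and neither of these passed.

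Complex III had 8 members with a median log2 fold change of 0.072, 7 above 0 and 1 below, and 0 passed in limma, with 1 higher at an unadjusted p under 0.05. That one was Uqcrc2, a core protein, with 1486, 1487 and 1420 in control and 1700, 1768 and 1638 in AA (log2 fold change 0.18, adjusted p = 0.211 in limma). Uqcrfs1, the Rieske iron-sulfur protein, read 1193, 1157 and 1249 in control and 1342, 1332 and 1263 in AA (log2 fold change 0.11). Neither gene's groups overlapped. Uqcrb, the member with the highest signal, read 6406, 5850 and 6736 in control and 7275, 7309 and 6725 in AA, overlapping by a narrow margin (log2 fold change 0.061). The smallest value was −0.043, for Uqcr11. Cyc1, the cytochrome c1 subunit that the prefixes leave out, had a log2 fold change of −0.010. Without the pair of replicate 3 the median of complex III was 0.16.

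Complex IV held the one member that passed. Cox6a2 read 184, 145 and 175 in control and 45.3, 51.3 and 52.3 in AA. The groups lay far apart, and every AA array was under 53 while every control array was above 144. The log2 fold change was −1.74 ± 0.15 (SE, n = 3 per group), with a 95% interval of −2.08 to −1.40 and an adjusted p of 0.000785 in limma, so that the level in AA was 0.299 times that in control. The replicate pairs gave −1.98, −1.48 and −1.75. A dimmer probe set of the gene read 29.7, 24.7 and 20.8 in control and 2.89, 2.78 and 7.40 in AA, which also passed (log2 fold change −2.71 ± 0.50 (SE, n = 3 per group), adjusted p = 0.0205 in limma). Cox6a2 passed in 16 of 18 alternative analyses, including each one that left out an array or a pair, with log2 fold changes between −2.23 and −1.12. With a mean signal of 109, the gene was not tested when only probe sets above the upper quartile (133) were kept. It did not pass in limma without the mean-variance trend (adjusted p = 0.376) or in the methods' t-test after Benjamini-Hochberg adjustment (adjusted p = 0.300). In both of these analyses 0 of all genes passed.

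Cox6a1, the partner isoform that most tissues use, did not pass. Its signals were 5690, 4823 and 5339 in control and 6205, 6170 and 5157 in AA, and the groups overlapped. The log2 fold change was 0.048, with a 95% interval of −0.10 to 0.20 (adjusted p = 0.781 in limma). The log2 difference of Cox6a2 and Cox6a1 on the same array changed by −1.79 between the groups, which restates the fall of Cox6a2. An exact permutation of the 6 arrays gave p = 0.1 for this difference. That is the smallest value possible with 3 arrays per group, so this test could not reach 0.05. Since Cox6a2 is known from muscle, the muscle markers Myog, Myod1, Ckm, Acta1, Des and Tnnt3 were read beside it. Their summed signal was 86.4 to 106 in control and 83.1 to 94.0 in AA, with mean signals of the single genes from 1.28 to 42.1, and 0 of the 6 passed in limma (0 at an unadjusted p under 0.05). In cultures like these, fewer cells that make a transcript and less transcript per cell cannot be told apart.

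The other isoforms that stand in for common subunits of complex IV mostly read near or under that median, where no statement on a change can be made. Cox4i2, the isoform known from lung and from low oxygen, read 3.93, 14.1 and 11.1 in control and 0.773, 16.2 and 11.2 in AA. Cox7a1, another muscle isoform, read 6.97, 5.92 and 14.03 in control and 9.67, 6.92 and 8.51 in AA. The groups overlapped for both. Cox6b2, Cox7b2 and Cox8b, of which the first is known from testis, had mean signals of 4.58, 0.951 and 2.34. Ndufa4l2, known as a target of the hypoxia factors, had the largest log2 fold change of the complex, 0.71 ± 0.52 (SE, n = 3 per group), with single arrays at 7.17, 4.48 and 13.1 in control and 7.54, 17.5 and 16.2 in AA (adjusted p = 0.554 in limma). Its interval ran from −0.49 to 1.91. Cox8c read 58.2, 59.1 and 42.0 in control and 62.8, 58.5 and 60.2 in AA, a log2 fold change of 0.21 (adjusted p = 0.596 in limma).

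**Figure D3:**
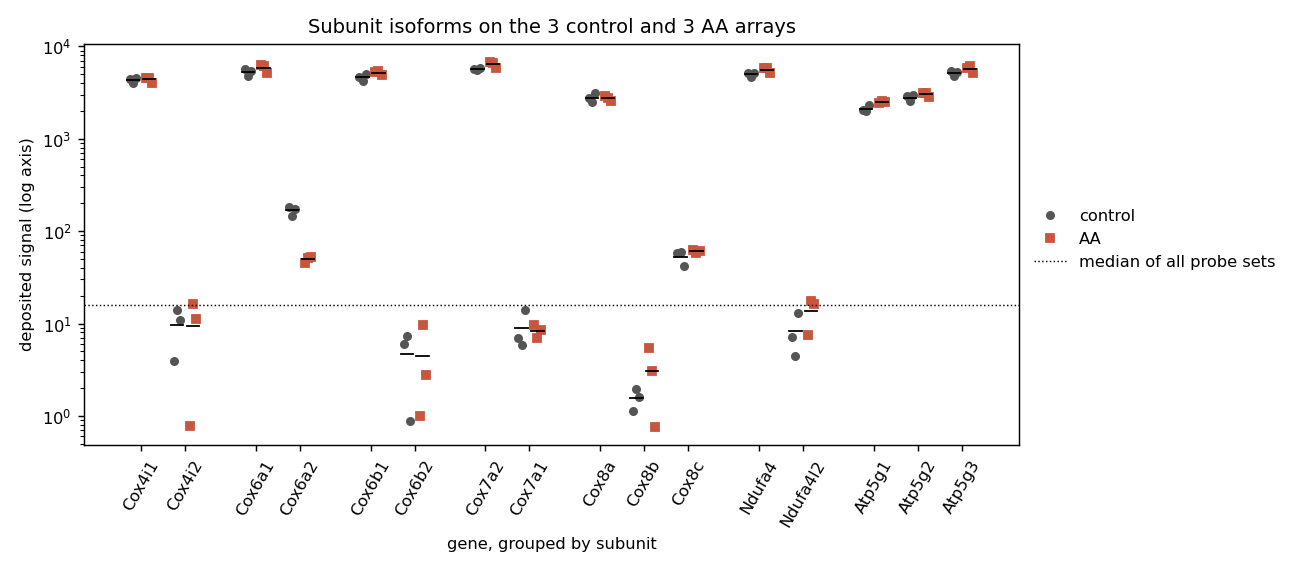
Deposited signal (log axis) of isoforms of complex IV subunits and of the complex V c subunit on the 3 control (circles) and 3 AA (squares) arrays, with bars for group means and a dotted line at the median of all probe sets (16.02). Signals can be compared only within a gene, and Cox6a2 is the only one shown whose groups stand far apart, at 145 to 184 and 45.3 to 52.3.

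The common subunits of complex IV stayed close to their control levels. Cox7a2, the member of the complex with the highest signal, read 5735, 5583 and 5792 in control and 6729, 6676 and 5801 in AA, with a log2 fold change of 0.067 after normalization (95% interval −0.080 to 0.22). Cox4i1 read 4401, 3995 and 4494 in control and 4506, 4594 and 4056 in AA (log2 fold change −0.088, 95% interval −0.24 to 0.064). Cox5a, Cox5b, Cox6b1, Cox6c, Cox8a and Ndufa4 lay between −0.091 and 0.11, and none of them passed in limma. Cox7c was read only dimly, at 41.9 to 58.3, with a log2 fold change of −0.15 ± 0.17 (SE, n = 3 per group). The median over the 18 members was 0.025, or 0.13 with the signals as deposited. It was −0.036 when the probe sets of a gene were averaged.

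Complex V, the ATP synthase, had 17 members, all with signals above 1000, and 0 passed in limma, with 1 higher and 0 lower at an unadjusted p under 0.05. The median log2 fold change was 0.036, or 0.12 with the signals as deposited, and the range was −0.045 to 0.18. The interval of every member lay within −0.5 and 0.5. In the catalytic head, Atp5b, the beta subunit, read 3767, 3668 and 3291 in control and 3861, 4005 and 3652 in AA (log2 fold change 0.013, 95% interval −0.16 to 0.18). Atp5a1, Atp5c1 and Atp5d gave 0.049, 0.008 and −0.008, and Atp5e, the epsilon subunit, gave 0.16 (adjusted p = 0.307 in limma). The groups of Atp5b overlapped, as the values show.

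The c ring, which turns as protons pass, is encoded by 3 genes for the same mature protein. Atp5g1 read 2070, 1988 and 2301 in control and 2447, 2556 and 2497 in AA, the largest change of the complex at 0.18 ± 0.069 (SE, n = 3 per group; adjusted p = 0.218 in limma). Its groups did not overlap. Atp5g2 gave 0.058 and Atp5g3, the member with the highest signal, 0.036 from 5470, 4760 and 5287 in control and 5809, 6090 and 5083 in AA. When its probe sets were averaged, Atp5g2 passed with a log2 fold change of 1.30 (adjusted p = 0.0304 in limma), an average that included a probe set at 0.0950 to 4.05. The lowest value of the complex was that of Atp5l, −0.045, and the stalk subunits Atp5pb, Atp5h, Atp5j and Atp5o lay between −0.036 and 0.11. Without AA replicate 2 the median of complex V was 0.012.

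Among the 13 assembly factors with these prefixes, which help to build or join the complexes, the median log2 fold change was 0.074, and it was −0.004 after median centring. There were 12 above 0 and 1 below, and 0 passed in limma, with 2 higher at an unadjusted p under 0.05. Ndufaf4, an assembly factor of complex I, read 751, 674 and 527 in control and 804, 875 and 877 in AA. The groups did not overlap, and the log2 fold change was 0.42 ± 0.12 (SE, n = 3 per group; adjusted p = 0.0979 in limma). It passed without the pair of replicate 1 (adjusted p = 0.0212) and without control replicate 1 (adjusted p = 0.0442). A further probe set of Ndufaf4 read 321, 321 and 301 in control and 283, 308 and 315 in AA (log2 fold change −0.017). Sdhaf3, which serves complex II, gave 0.30 (adjusted p = 0.115 in limma), and Ndufaf5 the smallest value, −0.18 (adjusted p = 0.381). Cox7a2l, known from the joining of complexes III and IV, had the highest signal and gave 0.005.

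Averaged over each complex, the arrays of the groups mostly overlapped. For complex II the mean log2 signal relative to the control mean was 0.010, −0.071 and 0.061 in control and 0.098, 0.17 and 0.14 in AA, without overlap, while after median centring the groups overlapped. The assembly factors showed the same, with 0.042, −0.041 and −0.001 in control and 0.076, 0.13 and 0.098 in AA. For complex I the values were −0.003, −0.055 and 0.059 in control and −0.035, 0.036 and −0.009 in AA. Control replicate 3, the array with the highest Gapdh and actin ratios, was the highest control in complexes I, II, III and V. The part of RNA integrity in this was not tested. In complex IV, AA replicate 1 lay at −0.24, and over the 9 members above the upper quartile it lay at 0.002.

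**Figure D4:**
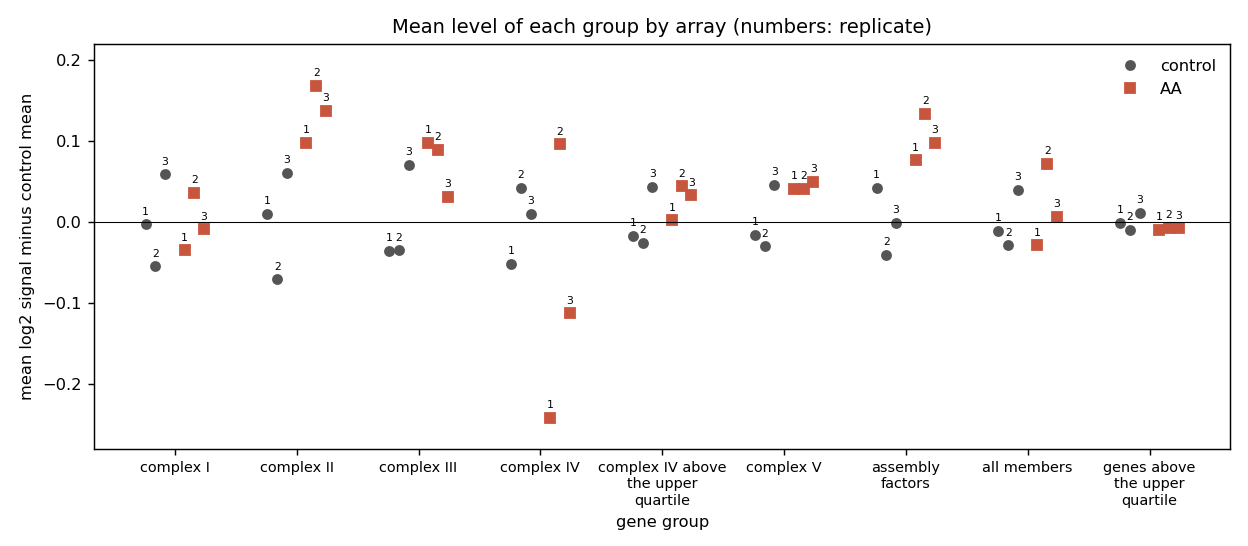
Mean log2 signal of each gene group on each array minus the mean of the 3 control arrays (normalized log2 units), with circles for control, squares for AA and the replicate number above each point. The groups do not overlap for complex II and the assembly factors and overlap elsewhere among the complexes, and the low AA values of complex IV are not seen over its 9 members above the upper quartile.

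Genes that work beside the respiratory chain were read from lists of their own, and each count stands beside the 4.07% of all genes that were higher and the 3.85% that were lower. In lists this short a single gene makes up a share close to these. Among 35 assembly factors outside the prefixes, 0 rose and 1 fell, namely Lrpprc, which stabilizes mitochondrial messenger RNA. It read 455, 484 and 440 in control and 308, 350 and 357 in AA (log2 fold change −0.41 ± 0.090 (SE, n = 3 per group), adjusted p = 0.0402 in limma), a call that was lost in 12 of 19 alternatives. Of 22 carriers of electrons and metabolites 0 passed in either direction in limma (3 higher and 3 lower at an unadjusted p under 0.05). Cycs, cytochrome c, and the ADP/ATP carriers Slc25a4 and Slc25a5, named after their values were seen, gave 0.12, −0.11 and 0.059.

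In the citrate cycle and pyruvate dehydrogenase list, 1 of 23 genes rose (4.35%) and 2 fell (8.70%), the first share being about that of all genes. Ogdh, the 2-oxoglutarate dehydrogenase, read 265, 220 and 218 in control and 410, 433 and 462 in AA. Its groups lay apart, with a log2 fold change of 0.94 ± 0.11 (SE, n = 3 per group; adjusted p = 0.00285 in limma), and the call held in 16 of 19 alternatives. Pdk4, a kinase that switches pyruvate dehydrogenase off, fell by 0.44 on the log2 scale (adjusted p = 0.0372 in limma), although its groups overlapped, at 378 to 561 in control and 263 to 428 in AA. Without the replicate block its adjusted p was 0.274. Pdp1, a phosphatase that acts against that kinase, fell by 0.44 as well (adjusted p = 0.0428), and its call was lost in 11 of 19 alternatives.

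Regulators of mitochondrial biogenesis gave 0 rises and 1 fall among 22 genes. The fall was that of Lonp1, a matrix protease, with 579, 482 and 458 in control and 311, 327 and 369 in AA (log2 fold change −0.56 ± 0.11 (SE, n = 3 per group), adjusted p = 0.0310 in limma), lost in 9 of 19 alternatives. Nrf1 and Gabpa, whose core motifs are counted above, gave −0.31 and 0.096 and did not pass. Ppargc1a, the coactivator known for driving biogenesis, was dim, at 1.41, 1.45 and 5.35 in control and 5.21, 9.96 and 4.70 in AA.

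Proteins of the mitochondrial ribosome, which translate the subunits encoded in mitochondrial DNA, had 8 of 76 higher (10.5%) and 0 lower in limma, a count that changed much with the processing. At an unadjusted p under 0.05, 25 were higher and 1 lower (32.9% and 1.32%), against 10.7% and 12.9% of all genes. Of the 76, 74 lay above the upper quartile of signal. Among the 7147 genes there, 8.03% passed upward in limma and 7.96% downward. At an unadjusted p under 0.05, 1286 of these 7147 were higher and 1570 lower. Beside genes of that signal, the excess of the 10.5% was thus smaller than beside all genes. The median log2 fold change of the 76 ribosomal proteins was 0.11. Mrps28 read 880, 824 and 909 in control and 1349, 1358 and 1346 in AA (log2 fold change 0.63 ± 0.073 (SE, n = 3 per group), adjusted p = 0.00292 in limma), and it passed in 17 of 19 alternatives. Mrpl16 and Mrpl14 rose by 0.46 and 0.37 (adjusted p = 0.0222 and 0.0330 in limma), calls that were lost in 9 and 14 alternatives. The count of 8 was 3 with the signals as deposited, 1 after median centring and 13 above the upper quartile. It was 1 without the pair of replicate 2, without control replicate 2, without AA replicate 1 and without AA replicate 2, 2 without AA replicate 3 and 4 without control replicate 3. Among 24 genes of mitochondrial import 1 rose, Timm17b, a subunit of the inner membrane translocase, with 507, 585 and 576 in control and 801, 777 and 810 in AA (log2 fold change 0.54 ± 0.084 (SE, n = 3 per group), adjusted p = 0.0101 in limma).

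**Figure D5:**
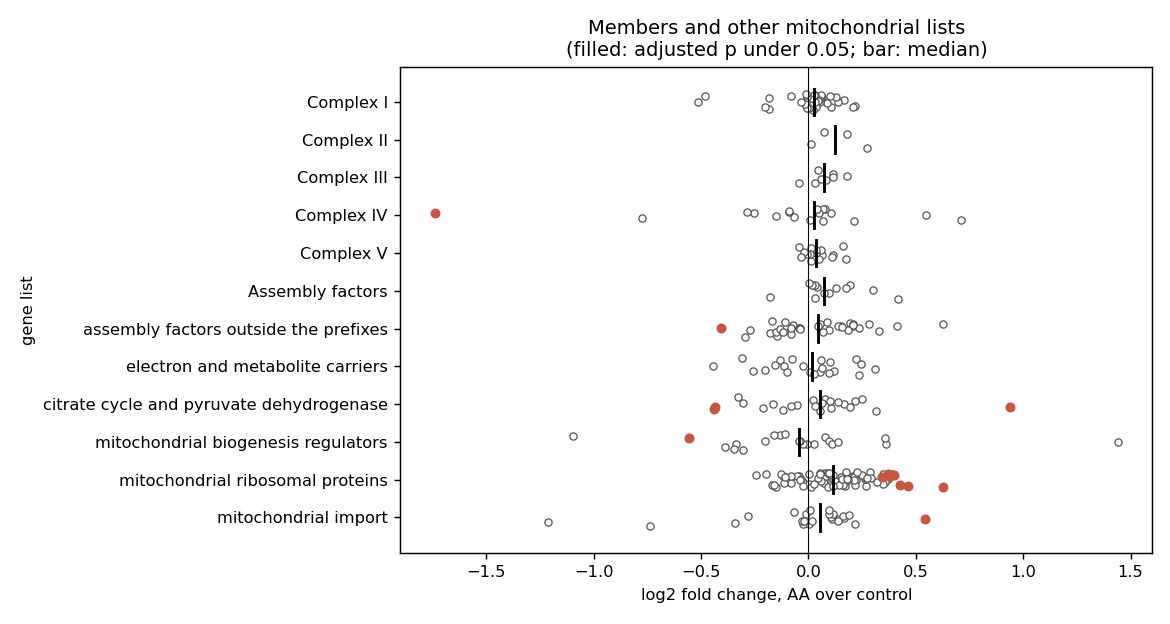
Log2 fold change (AA over control) of the genes in each complex, among the assembly factors and in 6 other mitochondrial lists, with 1 circle per gene, filled where the adjusted p in limma was under 0.05, and a bar at each list's median. Most members lie near 0, with 83 of 94 between −0.25 and 0.25, and Cox6a2 is their only filled circle. Among the 76 mitochondrial ribosomal proteins 8 are filled, all to the right of 0.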

How the data were processed

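The submitters' processing notes name MAS5. The deposited values are linear intensity readings, with a trimmed mean of 150 on every array. Quantile normalization and GC-RMA, named in the paper's methods, were not part of these deposited values. No detection calls were in the table. No genome build of the files is given in the sources used here.

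Of the deposited intensity readings, those of 64 control probe sets were left out, and log2 values of the remaining 45037 were quantile-normalized. limma 3.58.1 in R 4.3.3 was fitted on all of them with condition and replicate number (a block, since paired tests are named in the methods) and a mean-variance trend, with 2 residual and 6.18 prior degrees of freedom. Benjamini-Hochberg adjustment ran over all probe sets (threshold 0.05). The platform annotation names a single gene for 34945 probe sets, and the one of highest mean stands for its gene. Intervals cover the spread between these arrays, whose number limits the precision, and SD or SE have n = 3 per group. Promoter motifs and figures were made with Python 3.11.15 and matplotlib 3.10.9, and the fit was tested on simulated data.

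The members, lists and the rule for named genes were chosen with earlier results of these data known. The rule names members that passed, in each complex the highest signal and the largest and smallest log2 fold change, isoforms with their partners, and up to 3 genes per direction that passed in each other list. Other members are named for their role in a complex, after their values were seen. Markers of adipocytes (5), endothelium (4), macrophages (4) and chondrocytes (4) were also read. Of these, 0 adipocyte and 0 endothelial markers passed in limma, also at an unadjusted p under 0.05, and Csf1r and Col2a1 were the ones that passed in the other lists. Alternatives were no replicate block, other scalings, a pseudocount of 50, filters on dim probe sets, no trend, the methods' t-test (unadjusted p under 0.01 and a fold of 1.5, or adjusted), arrays or pairs left out, and probe sets averaged per gene.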

Additional observations from a re-analysis of the deposited data

How the results depend on the processing

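No named gene that passed changed its direction. The median of complex IV turned from 0.025 to −0.036 with probe sets averaged per gene and that of the assembly factors from 0.074 to −0.004 after median centring, and members with values near 0, such as Sdha (−0.15 to 0.11) and Atp5l (−0.090 to 0.038), took both signs. The members' median log2 fold change lay between 0.016 and 0.089 over all alternatives. The count of members higher in AA, 0 in the main analysis, was 1 above the median signal (Sdhb), 2 above the upper quartile (Sdhb and Ndufa13), 1 with probe sets averaged per gene (Atp5g2), and 0 to 1 when an array or a pair was left out. The count of members lower, 1, was 0 without the mean-variance trend and 0 in the methods' t-test after adjustment, and 2 with the mean of the probe sets (Cox6a2 and Ndufa10). Above the upper quartile it was also 1, but that member was Ndufa7, since Cox6a2 was not tested there. Without the trend 0 members were higher and 2 lower at an unadjusted p under 0.05, and in the methods' t-test 7 and 2. Of all genes, 740 were higher and 700 lower. The higher count was 473 after median centring, and a pseudocount of 50 gave 489 higher and 430 lower. The methods' t-test by unadjusted p and fold gave 189 and 175, and the mean of the probe sets 363 lower. Without the trend, and in the adjusted t-test, both counts were 0 in these tools (1115 and 1135, and 1357 and 1513, at an unadjusted p under 0.05). Leaving out an array or a pair gave 246 to 730 higher and 226 to 607 lower, and the counts fell below those with all arrays by over 1.5 times without the pair of replicate 2 (321 and 269), control replicate 2 (299 and 260), control replicate 3 (471 and 360), AA replicate 1 (307 and 322), AA replicate 2 (246 and 226) and AA replicate 3 (411 and 356). Without the replicate block 660 genes were higher and 667 lower, and Cox6a2 again passed as the only member (adjusted p = 0.000550 in limma). Same-numbered control and AA arrays correlated at 0.19, 0.031 and 0.10 in their deviations from the group means. Replicates 1 and 3 correlated best with their own number, and control replicate 2 slightly better with AA replicate 3 (0.045). With 3 arrays per group, these values cannot tell whether the samples were paired. Of the other values compared, 1051 kept their side of the threshold or moved by less than the spread, 55 moved by more, 90 lost and 5 gained a call. Signal limits what can be said of the 7 members below the median of all probe sets.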
